A study of Mus musculus with 9 samples.

Results

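Transcript levels of 36 chromatin and DNA methylation regulators were followed in sorted mouse brain cells after a transient ischemic attack (TIA). The study calls these cells, positive for CD45 and CD11b, microglia-like. The genes were chosen by symbol as writers, erasers and readers of histone marks, Polycomb proteins, DNA methylation factors, corepressors and nucleosome remodellers, and all 36 listed symbols were found among the 757 genes of the deposited table. TIA was modelled by a brief occlusion of the middle cerebral artery with an intraluminal filament, and Sham animals had the same surgery without the filament. Brains were taken 24 h (TIA 24h) or 3 d (TIA 3d) after TIA, with 3 samples in each of the 3 groups. Every brain was perfused, kept in a buffer holding actinomycin D, which blocks transcription, dissociated with papain and enriched on Percoll, and live (7-AAD-negative) cells carrying CD45 and CD11b were sorted. Their RNA was hybridised to an nCounter mouse neuroinflammation panel, which counts barcoded probes without amplification. The study gives males for this experiment, no transgene is named for these samples, and the labels give neither strain nor age. Each group was prepared from 3 mice, and that every sample is 1 mouse is implied by the numbers and not written out.

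Histone and DNA modifying enzymes set how accessible a gene is to the transcription machinery. Polycomb repressive complex 2 (PRC2) methylates histone H3 through Ezh1 or Ezh2, both of which need Eed and Suz12, and keeps genes silent. Acetyltransferases open chromatin, deacetylases and corepressors close it, and Dnmt enzymes methylate DNA while Tet enzymes start the removal of that mark. In microglia these regulators are known for their part in maintaining cell identity and in setting the size of inflammatory responses.

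Depth and the share of microglia marker counts differed between the lanes. Whole counts could be recovered from the deposited values, and their totals ranged from 6560 to 62883 per lane, highest in the 3 TIA 3d lanes. The 15 measured microglia markers made up 25.0% to 27.8% of all counts at TIA 3d, 3.24% to 7.47% at TIA 24h and 29.8%, 13.7% and 3.89% in Sham replicates 1, 2 and 3. Oligodendrocyte markers (13 measured) held 0.32% to 0.647% of the counts at TIA 3d, 2.6% to 5.65% at TIA 24h and 0.563% to 5.95% in Sham. The 14 measured blood leukocyte markers had lane medians of 6.5 to 10.5 counts. Sham replicate 3 and the TIA 24h samples thus stood apart with few counts of microglia markers, and the part of that difference in the results below was not tested. In sorted bulk samples, fewer cells of a type and less RNA per cell cannot be told apart.

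Counts of the regulators were small. Over the 36 genes and 9 samples they ranged from 1 to 135, and the median regulator had 7.5 to 16 counts in Sham lanes, 9 to 12 in TIA 24h lanes and 20 to 27.5 in TIA 3d lanes. No regulator reached 20 counts in every lane, and 8 reached it in no lane. The genes Hdac6, Dnmt1, Dnmt3b, Tet1 and Hells lay above the highest leukocyte marker of the lane in 0 of the 9 samples, so their values cannot be told from the level of probes for genes of other cells. Together the regulators took 1.92% to 4.79% of a lane's counts. On the deposited log2 scale of normalized counts, the pooled standard deviation within groups ranged from 0.14 to 1.03 between genes, with a median of 0.51.

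**Figure D1:**
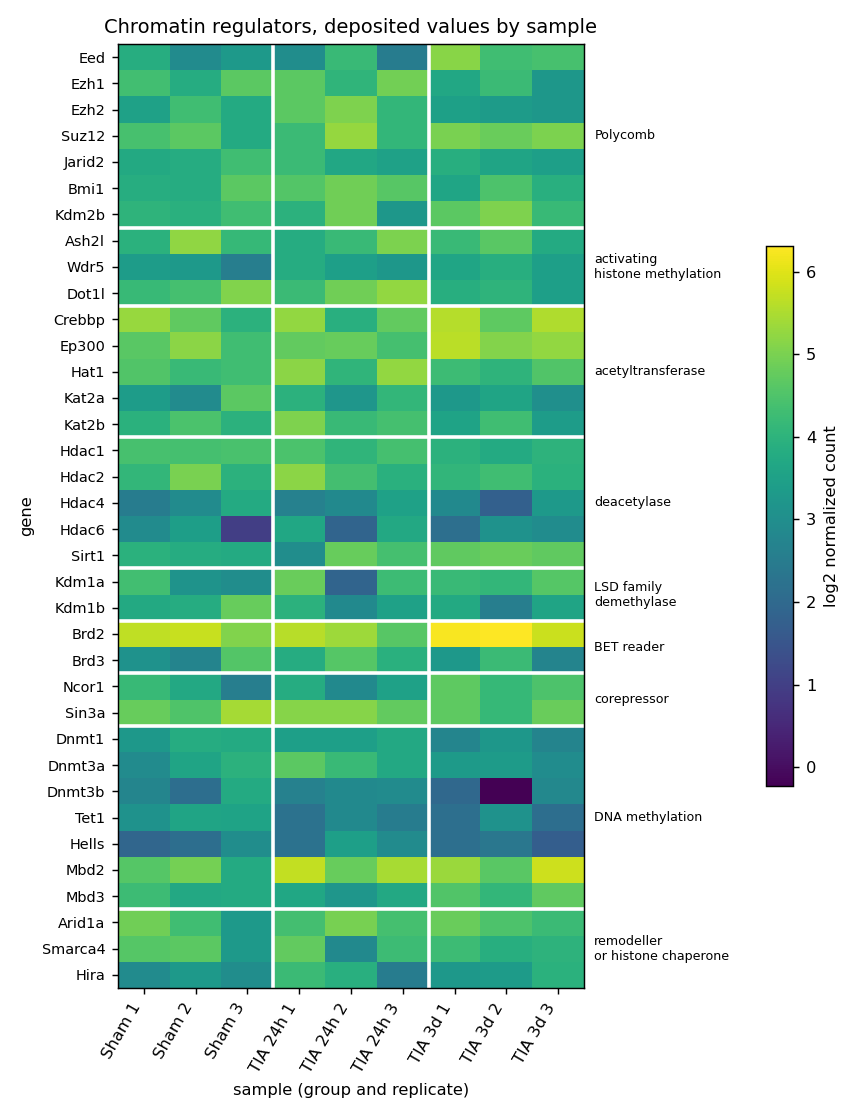
Deposited log2 normalized counts of the 36 regulators (vertical axis, grouped by role) in each of the 9 samples (horizontal axis, white lines between groups), with colour for the value. Brd2 lay at 5.79 to 6.31 in the TIA 3d samples, with the highest value of all regulators, and Dnmt3b held the lowest value, -0.23 in TIA 3d replicate 2.

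The first question was whether any regulator differed between the 3 groups. In limma's moderated F test, adjusted by Benjamini-Hochberg over the 757 genes, 0 regulators passed an adjusted p of 0.05 (0% of all genes passed), and 2 had an unadjusted p under 0.05 (5.56%, against 31.0% of all genes). The smallest adjusted p among the regulators was 0.12. With limma's contrasts, 0 of the 36 passed between TIA 24h and Sham (0% of all genes) and 0 had an unadjusted p under 0.05, against 7.53% of all genes. Between TIA 3d and Sham 0 passed as well (0% of all genes), and Eed and Tet1 had an unadjusted p under 0.05 (5.56%, against 19.6% of all genes). Between the post-TIA groups 1 regulator passed, Ezh2, lower at TIA 3d, where 19.2% of all genes passed. A further 6 had an unadjusted p under 0.05 there: Eed, Ncor1, Brd2 and Mbd3 were higher and Dot1l and Dnmt3a lower. With Ezh2 these made 7 of 36 regulators (19.4%), against 40.2% of all genes.

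The regulators as a list lay close to the other genes of the panel. Their median log2 difference was 0.11 at TIA 24h against Sham (all genes 0.15), -0.13 at TIA 3d against Sham (all genes -0.01) and -0.16 at TIA 3d against TIA 24h (all genes -0.25). Scaling sets the sign of these medians: with every sample centred on its own median they were -0.07, 0.03 and 0.17. Groups did not overlap for 1 regulator between TIA 24h and Sham (2.78%, with 9.78% of all genes), for 10 between TIA 3d and Sham (27.8%, with 24.2%) and for 11 between TIA 3d and TIA 24h (30.6%, with 48.3%). The median 95% interval of a regulator's difference reached 0.97 to either side, which stands for an unadjusted p of 0.05. With 3 samples per group, smaller differences were mostly not detectable, and the adjusted threshold asked for larger ones. Between TIA 3d and TIA 24h, Eed at 1.39 (limma adjusted p = 0.0611) and Dnmt3b at -1.29 (limma adjusted p = 0.167) did not pass, while Ezh2 at -1.25 did.

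**Figure D2:**
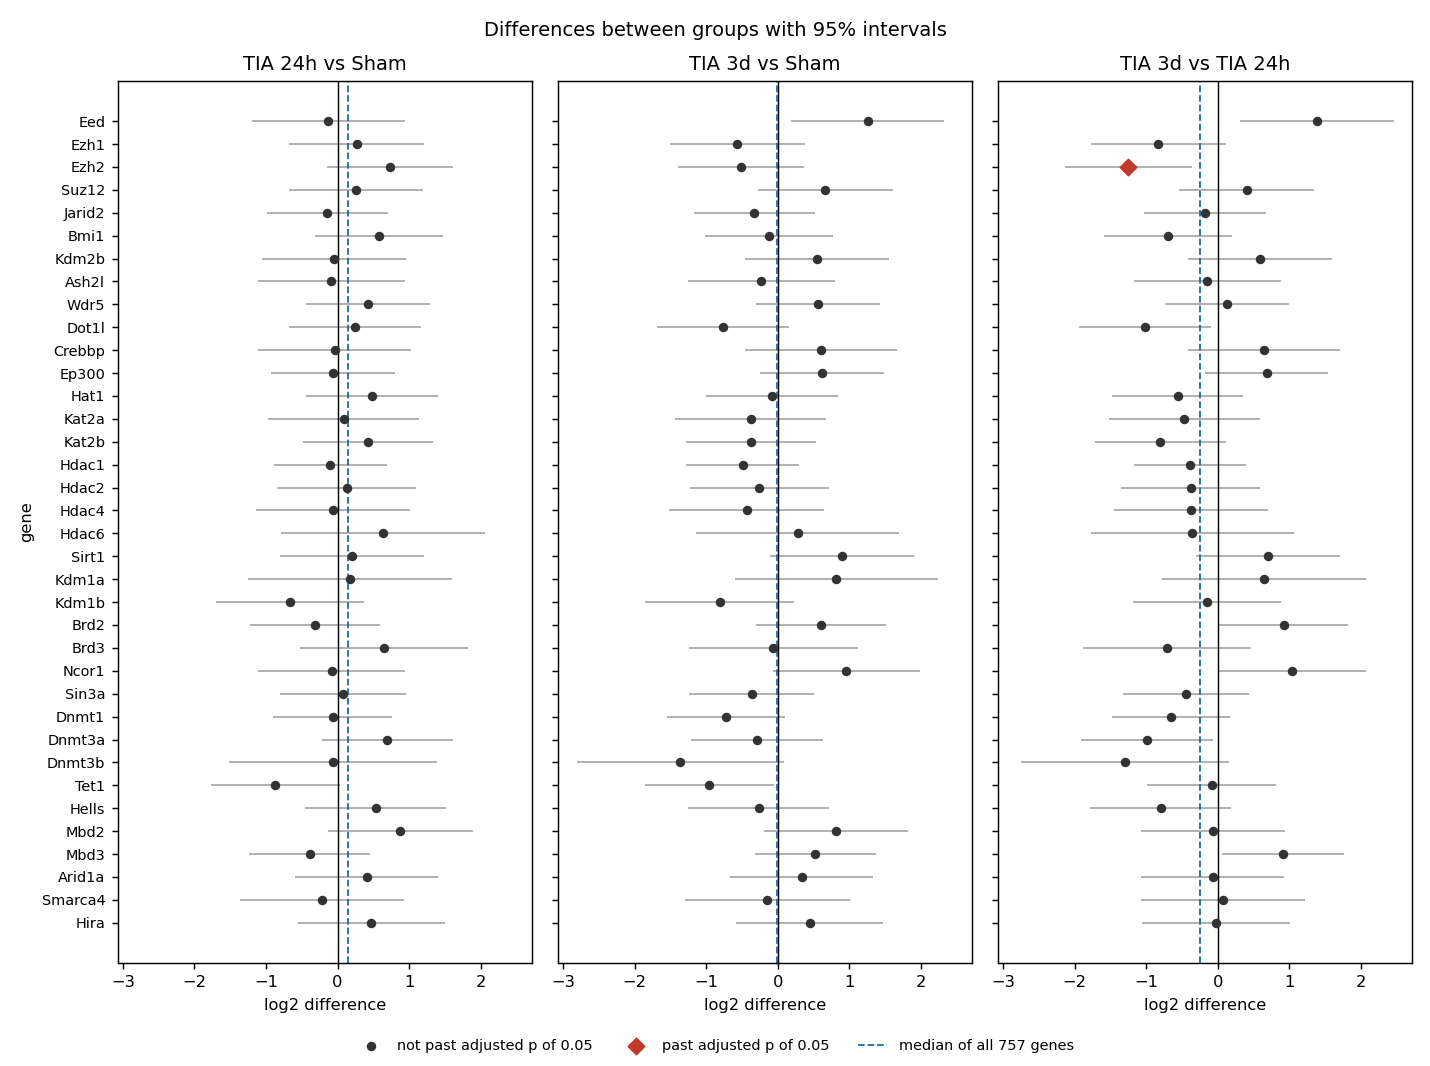
Log2 differences of the 36 regulators (points) with 95% intervals from limma (bars) in the 3 comparisons, each panel's horizontal axis in log2 units, with the median of all 757 genes as a dashed line. Ezh2, at -1.25 between TIA 3d and TIA 24h, is the single gene past an adjusted p of 0.05.

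Ezh2 and Eed, the PRC2 genes that lay farthest apart between the post-TIA groups, are shown with their promoters, since the data turn on them. The sequences run 5′ to 3′ from 250 bases before to 50 bases after the transcript start, on the minus strand of GRCm38.p6, from RefSeq. Capitals mark matches on either strand to CCAAT, the box bound by NF-Y, and to TTTGGCGC or TTTCCCGC, forms of the site for E2F, the family of S-phase transcription factors.
Ezh2, chr6:47594981-47595280: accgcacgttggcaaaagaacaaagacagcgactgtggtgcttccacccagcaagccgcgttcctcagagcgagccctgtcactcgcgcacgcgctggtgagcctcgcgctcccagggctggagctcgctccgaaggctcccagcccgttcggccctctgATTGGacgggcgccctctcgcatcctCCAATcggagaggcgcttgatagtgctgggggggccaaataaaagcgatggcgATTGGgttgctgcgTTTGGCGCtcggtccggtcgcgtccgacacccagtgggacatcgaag
Eed, chr7:89980927-89981226: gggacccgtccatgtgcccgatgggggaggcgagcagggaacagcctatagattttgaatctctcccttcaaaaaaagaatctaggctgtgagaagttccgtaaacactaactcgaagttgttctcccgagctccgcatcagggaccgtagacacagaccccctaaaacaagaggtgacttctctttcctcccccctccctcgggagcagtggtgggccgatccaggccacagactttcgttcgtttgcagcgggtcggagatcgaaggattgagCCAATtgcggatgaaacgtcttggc
The Ezh2 window held 31 CpG, 1 E2F match and 3 CCAAT matches, and the Eed window 17 CpG, 0 E2F matches and 1 CCAAT match. Promoters were found for 33 of the 36 regulators, all but Ash2l, Hdac1 and Mbd2, some with several starts and 47 in all. An E2F match lay in 5 of these 47 promoters (of Arid1a, Dnmt1, Ezh2, Hells and Suz12) and in 1.56% of 32851 mouse promoters of the same length, and CCAAT lay in 17 of 47 and in 37.4%. Median CpG was 28 over the 47 promoters of the regulators and 7 over all. These matches are letters in a window, and no binding was measured.

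Among Polycomb genes, Ezh2 fell between TIA 24h and TIA 3d. Ezh2 is the methyltransferase subunit of PRC2 typical of dividing cells. Its log2 values were 3.52, 4.30 and 3.78 under Sham, 4.66, 5.06 and 4.09 after 24 h and 3.49, 3.36 and 3.22 after 3 d. All TIA 3d samples lay below every other sample, and TIA 24h replicate 3 lay within the Sham range. The TIA 3d level was 0.422 of that at TIA 24h, a log2 difference of -1.25 (SE 0.41, 95% interval -2.13 to -0.36, n = 3 per group, limma adjusted p = 0.0494). Ezh2 was above the highest of the 14 leukocyte markers of its lane in 3 of 9 lanes, and those markers had a median difference of -1.02 in this comparison. Against Sham, Ezh2 was 0.73 higher at TIA 24h (limma adjusted p = 0.722), and the TIA 3d difference was -0.51 (limma adjusted p = 0.467).

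The recovered counts behind these values were not lower at TIA 3d. They were 12, 18 and 7 for Sham, 16, 18 and 9 for TIA 24h and 20, 12 and 17 for TIA 3d, and the latter groups overlapped. The mean count ratio of TIA 3d to TIA 24h was 1.14 for Ezh2, where the authors' normalization scaled TIA 24h lanes up by a mean factor of 2.71 relative to TIA 3d. For comparison, 12 regulators had a count ratio above that factor. The Ezh2 call was lost on leaving out any TIA sample or Sham replicate 2 (limma adjusted p = 0.0572 to 0.166), with median-centred samples (-0.91, limma adjusted p = 0.121), with quantile normalization (-1.12, limma adjusted p = 0.178), with the log2 total of a lane as covariate (-1.15, limma adjusted p = 0.947), with the replicate number as a block (limma adjusted p = 0.0554) and with a median leukocyte marker count taken off as lane background (-1.53, limma adjusted p = 0.175). Without Sham replicate 3, the shallowest lane, it held at an adjusted p of 0.0353 in limma. Lane-total scaling (-2.19, limma adjusted p = 0.0109), voom (-2.24, limma adjusted p = 0.00317), an intensity trend (limma adjusted p = 0.0352) and a filter on low means (limma adjusted p = 0.0398) kept it. The size of the difference ranged from -1.50 to -1.02 as each sample was left out.

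Eed, the PRC2 subunit that reads methylated H3 and stimulates the enzyme, was higher at TIA 3d and did not pass the test. It read 3.85, 2.93 and 3.30 in the Sham samples, 2.98, 4.21 and 2.51 in the TIA 24h samples and 5.14, 4.29 and 4.42 in the TIA 3d samples. All TIA 3d samples were above the rest, closest being TIA 3d replicate 2 and TIA 24h replicate 2. Differences were 1.39 against TIA 24h (SE 0.50, 95% interval 0.32 to 2.46, limma adjusted p = 0.0611) and 1.26 against Sham (SE 0.50, limma adjusted p = 0.19). Recovered counts, which are not corrected for depth, were 15, 7 and 5 under Sham, 5, 10 and 3 after 24 h and 63, 23 and 39 after 3 d. Mean lane totals at TIA 3d were 5.5 times those at TIA 24h and 3.05 times those of Sham. The lane medians of the leukocyte markers were 7.5, 10 and 6.5 in Sham and 8, 7 and 7 at TIA 24h. Eed was above the highest leukocyte marker of its lane in 2 of 9 lanes, so both differences rest on Sham and TIA 24h levels near background. Eed passed between TIA 3d and TIA 24h when samples were median-centred (1.73, limma adjusted p = 0.0334), with an intensity trend and robust prior (limma adjusted p = 0.0399), with lane background taken off (2.78, limma adjusted p = 0.0461) and without Sham replicate 1 (limma adjusted p = 0.0456). The difference was smaller with lane-total scaling (0.44, limma adjusted p = 0.487), with voom on the counts (0.35, limma adjusted p = 0.566) and with the log2 total of a lane as covariate (0.84, limma adjusted p = 0.973). The difference from Sham was 0.50 with either of the first 2 settings and 2.82 with lane background taken off, short of the threshold in each.

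Suz12, the scaffold of PRC2 and its gene with the most counts, read 4.40, 4.65 and 3.78 for Sham, 4.24, 5.28 and 4.09 for TIA 24h and 5.0, 4.82 and 5.02 for TIA 3d. The TIA 3d samples were above all Sham samples and within the TIA 24h range. The difference from Sham was 0.67 (SE 0.44, limma adjusted p = 0.373). Ezh1, the PRC2 enzyme typical of resting cells, differed by -0.83 between TIA 3d and TIA 24h (limma adjusted p = 0.173). Its counts stayed between 9 and 23. Jarid2, which helps to recruit PRC2, Bmi1, a PRC1 ring finger protein, and Kdm2b, which brings a variant PRC1 to CpG islands, differed by -0.18, -0.69 and 0.60 between TIA 3d and TIA 24h, all short of the threshold.

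**Figure D3:**
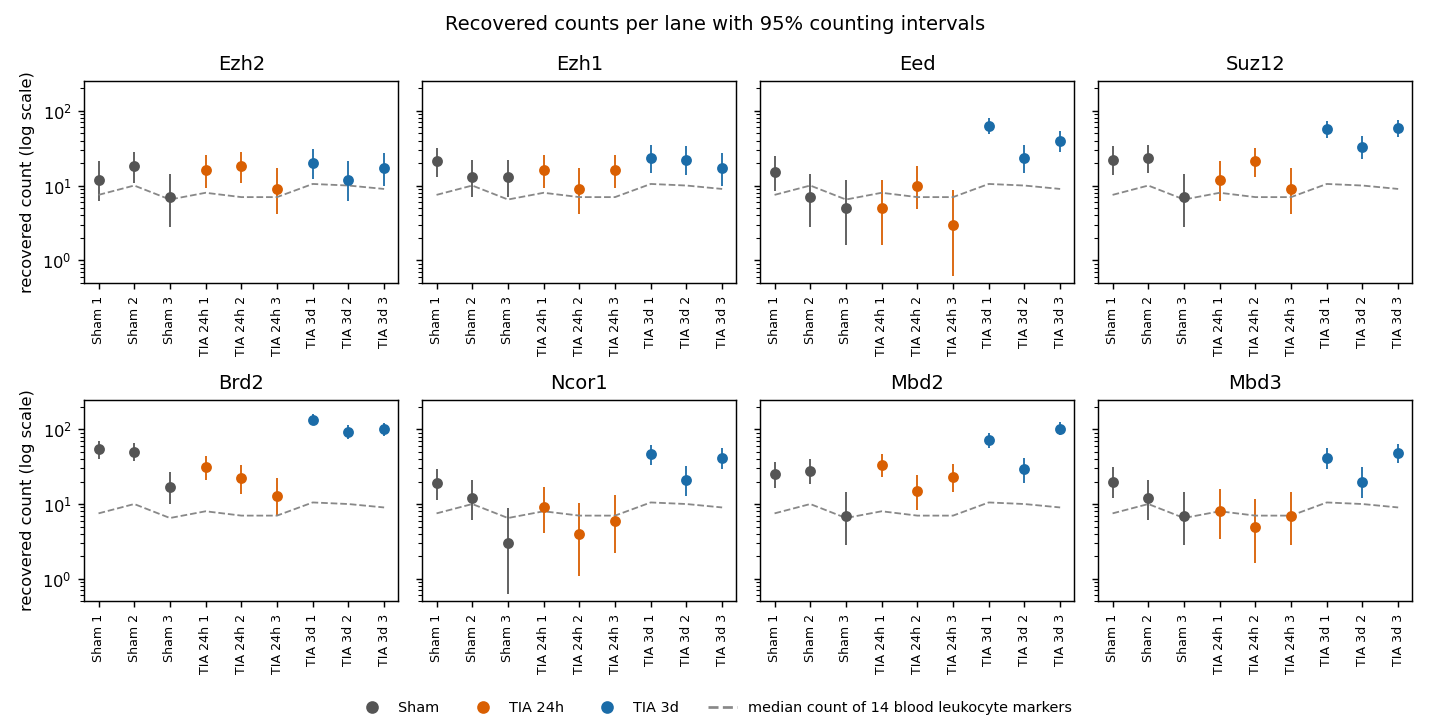
Recovered probe counts (vertical axis, log scale) of 8 regulators in each of the 9 samples (points), with 95% Poisson intervals (bars) that cover counting error only and the lane's median of 14 blood leukocyte markers (dashed). Counts are not corrected for lane depth. Those of Ezh2 stay between 7 and 20 in all groups, while Eed counts at TIA 3d, 23 to 63, exceed its counts in the other groups.

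Of the genes for activating histone methylation, Dot1l, which methylates H3 within transcribed genes, was lowest at TIA 3d. Its log2 values were 4.19, 4.38 and 5.06 in the Sham samples, 4.24, 4.89 and 5.24 in the TIA 24h samples and 3.87, 4.02 and 3.45 in the TIA 3d samples. The TIA 3d samples lay below all others, and Sham and TIA 24h overlapped. Against TIA 24h the difference was -1.01 (SE 0.43, limma adjusted p = 0.097) and against Sham -0.76 (limma adjusted p = 0.307). The difference from TIA 24h was 0.27 with the log2 total of a lane as covariate, and it passed with lane-total scaling (-1.96, limma adjusted p = 0.0173) and with voom (-1.94, limma adjusted p = 0.00545). As for Ezh2, the counts overlapped, at 12, 16 and 20 for TIA 24h and 26, 19 and 20 for TIA 3d. Ash2l, a core subunit of the complexes that methylate H3 at promoters, read 3.94, 5.21 and 4.14 under Sham, 3.83, 4.21 and 5.01 after 24 h and 4.21, 4.63 and 3.78 after 3 d. These 3 groups overlapped throughout, and no Ash2l difference exceeded 0.23 in size. Wdr5, its partner, was 0.56 above Sham at TIA 3d without overlap (limma adjusted p = 0.418), at 22 counts or fewer.

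On the deposited values, acetyltransferases gave 0 passes in limma in any comparison, and 0 had an unadjusted p under 0.05. Crebbp and Ep300, the paired coactivators that acetylate enhancers, had the most counts of the group. Crebbp read 5.30, 4.71 and 3.97 for Sham, 5.24, 3.89 and 4.73 for TIA 24h and 5.59, 4.68 and 5.52 for TIA 3d, with overlap between all groups. Ep300 read 4.64, 5.17 and 4.30 in the Sham samples, 4.74, 4.79 and 4.38 in the TIA 24h samples and 5.64, 5.09 and 5.24 in the TIA 3d samples. TIA 3d lay above TIA 24h without overlap, by 0.69 (SE 0.40, limma adjusted p = 0.216), and overlapped Sham. Hat1, which acetylates new histone H4, and Kat2a and Kat2b, the catalytic subunits of SAGA-type complexes, differed by -0.56, -0.47 and -0.80 between TIA 3d and TIA 24h. None of these passed on the deposited values. In the same comparison, Hat1 and Kat2b passed in limma as lower with lane-total scaling, and Hat1, Kat2a and Kat2b with voom.

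On the deposited values, deacetylases likewise gave 0 passes and 0 with an unadjusted p under 0.05. Between TIA 3d and TIA 24h, Hdac1 and Hdac2 passed in limma as lower with lane-total scaling, where 344 of all genes passed. With voom, Hdac1, Hdac2 and Hdac6 passed as lower, where 385 of all genes passed. Sirt1, the NAD-dependent deacetylase that acts on histones and on NF-kB, was even within Sham and within TIA 3d. Its values were 3.94, 3.83 and 3.78 in the Sham samples, 2.98, 4.79 and 4.38 in the TIA 24h samples and 4.72, 4.82 and 4.72 in the TIA 3d samples. TIA 3d lay above Sham without overlap, while TIA 24h overlapped both. The difference from Sham was 0.90 (SE 0.47, limma adjusted p = 0.286), but 0.14 with lane-total scaling, 0.25 with voom and 2.45 with lane background taken off. Hdac1 was the least variable of the group. It read 4.40, 4.38 and 4.43 under Sham, 4.46, 4.06 and 4.38 after 24 h and 3.97, 3.77 and 3.99 after 3 d, where it was below both other groups, by -0.49 from Sham (SE 0.37, limma adjusted p = 0.436). Hdac2, its close relative in the same corepressor complexes, differed by -0.25 from Sham at TIA 3d. Hdac4, a signal-regulated class II enzyme, and Hdac6, which mainly deacetylates tubulin, held 4 to 18 and 1 to 14 counts.

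The LSD family demethylases Kdm1a and Kdm1b, which remove methyl groups from H3, did not pass. Kdm1a read 4.33, 3.13 and 2.97 under Sham, 4.83, 1.89 and 4.24 after 24 h and 4.21, 4.09 and 4.59 after 3 d. The TIA 24h samples spanned all TIA 3d samples, and their lowest value stood for 2 counts. Kdm1b read 3.75, 3.83 and 4.78 for Sham, 3.98, 2.89 and 3.51 for TIA 24h and 3.75, 2.58 and 3.59 for TIA 3d. It was among the 3 lowest differences against Sham at both times, -0.66 (limma adjusted p = 0.742) and -0.81 (limma adjusted p = 0.335), with overlap at both. Without Sham replicate 3 these values were -0.33 and -0.48, the first was -0.38 without TIA 24h replicate 2, and the second was -0.45 without TIA 3d replicate 2. With lane-total scaling and voom, the TIA 3d difference was -1.57 and -1.25 and did not pass. The TIA 24h difference was -0.13 with voom and -1.59 with lane background taken off, and neither passed.

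Of the BET readers, which bind acetylated histones, Brd2 had the highest counts of all regulators. Its log2 values were 5.69, 5.77 and 5.06 in the Sham samples, 5.61, 5.35 and 4.62 in the TIA 24h samples and 6.24, 6.31 and 5.79 in the TIA 3d samples. TIA 3d was above both other groups, narrowly so for TIA 3d replicate 3 and Sham replicate 2. Against TIA 24h the difference was 0.92 (SE 0.42, limma adjusted p = 0.121), with counts of 31, 22 and 13 at the earlier time and 135, 93 and 101 at the later. When lanes were scaled to their total counts the Brd2 difference was -0.03, so its sign rests on the scaling. Brd3 differed by -0.71 in the same comparison (limma adjusted p = 0.343).

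Ncor1, the nuclear receptor corepressor that holds Hdac3, had an unadjusted p under 0.05 between TIA 3d and TIA 24h. It read 4.19, 3.71 and 2.56 under Sham, 3.83, 2.89 and 3.51 after 24 h and 4.69, 4.16 and 4.49 after 3 d. TIA 3d lay above TIA 24h without overlap and overlapped Sham. Ncor1 counts at TIA 24h were 9, 4 and 6, near the lane medians of the leukocyte markers, 8, 7 and 7. The difference from TIA 24h thus rests on a level near background. The differences were 1.04 against TIA 24h (SE 0.48, limma adjusted p = 0.121) and 0.96 against Sham (limma adjusted p = 0.28), and 0.50 against Sham without Sham replicate 3. With the log2 total of a lane as a covariate, they were -0.74 and -0.33. They were 0.09 and 0.20 with lane-total scaling, and with lane background taken off they were 3.07, which passed (limma adjusted p = 0.0325), and 2.04, which did not. Sin3a, the scaffold for Hdac1 and Hdac2, read 4.80, 4.52 and 5.43 for Sham, 5.12, 5.13 and 4.73 for TIA 24h and 4.69, 4.16 and 4.80 for TIA 3d. Its groups overlapped, and its largest difference was -0.44.

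Several DNA methylation genes had few counts. Tet1, which oxidises methylcytosine, was the 1 regulator whose TIA 24h and Sham samples did not overlap. It read 3.11, 3.59 and 3.56 in the Sham samples, 2.24, 2.89 and 2.51 in the TIA 24h samples and 2.17, 3.09 and 2.13 in the TIA 3d samples. Both TIA groups were below all Sham samples, by -0.87 (SE 0.42, limma adjusted p = 0.701) and -0.95 (SE 0.42, limma adjusted p = 0.233). The counts were 9, 11 and 6 under Sham, 3, 4 and 3 after 24 h and 8, 10 and 8 after 3 d, near the leukocyte markers of the same lanes. With that lane background taken off, the TIA 24h difference was 0.28. The TIA 3d difference was -0.24 with the log2 total of a lane as covariate, -1.71 with lane-total scaling and -1.63 with voom, none of which passed.

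Dnmt3a, a de novo DNA methyltransferase, read 2.94, 3.59 and 3.97 for Sham, 4.66, 4.21 and 3.73 for TIA 24h and 3.34, 3.36 and 2.94 for TIA 3d. TIA 24h exceeded TIA 3d without overlap, a difference of -0.99 (SE 0.43, limma adjusted p = 0.103), and overlapped Sham, with a difference of 0.70 (limma adjusted p = 0.722), or 0.42 without Sham replicate 1. Dnmt3b, the related enzyme, showed the lowest differences at TIA 3d and the widest spread. It read 2.75, 2.13 and 3.78 in the Sham samples, 2.66, 2.89 and 2.92 in the TIA 24h samples and 1.97, -0.23 and 2.83 in the TIA 3d samples, the lowest being a single count. No value of the table stood for less than 1 count, and whether counts of 0 were raised to 1 is not stated, so values at 1 count may be upper limits (also Hdac6 in Sham replicate 3, at 0.97). TIA 3d overlapped both other groups. The differences were -1.36 against Sham (SE 0.67, limma adjusted p = 0.28) and -1.29 against TIA 24h (limma adjusted p = 0.167), and -0.48 and -0.42 without TIA 3d replicate 2. Against TIA 24h, Dnmt3b passed with lane-total scaling (-2.23, limma adjusted p = 0.0219) and with voom (-2.03, limma adjusted p = 0.0209), and the difference was -0.52 with quantile normalization. Against Sham it was -2.10 with lane-total scaling and -0.32 with lane background taken off, neither past the threshold. Dnmt1, which copies methylation at replication, and Hells, a remodeller that assists it, held 6 to 13 and 3 to 8 counts.

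Mbd2 and Mbd3, subunits of alternative NuRD complexes of which Mbd2 binds methylated DNA, lay apart at TIA 24h without passing. Mbd2 read 4.58, 4.93 and 3.78 under Sham, 5.70, 4.79 and 5.44 after 24 h and 5.32, 4.63 and 5.80 after 3 d, with overlap between all groups. Its differences from Sham were 0.88 at TIA 24h (SE 0.47, limma adjusted p = 0.722) and 0.82 at TIA 3d (limma adjusted p = 0.311), the first being 0.55 without Sham replicate 3. Mbd3 read 4.26, 3.71 and 3.78 for Sham, 3.66, 3.21 and 3.73 for TIA 24h and 4.53, 4.09 and 4.72 for TIA 3d. TIA 3d was above all TIA 24h samples and overlapped Sham. That difference was 0.91 (SE 0.39, limma adjusted p = 0.101).

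The remodellers and the histone chaperone gave 0 passes in limma and 0 with an unadjusted p under 0.05. Arid1a, the DNA-binding subunit of the BAF complex, read 4.89, 4.30 and 3.30 in the Sham samples, 4.36, 4.97 and 4.38 in the TIA 24h samples and 4.81, 4.47 and 4.22 in the TIA 3d samples, with overlap throughout. Smarca4, the BAF ATPase, ran from 2.89 in TIA 24h replicate 2 to 4.74 in TIA 24h replicate 1, and all its differences were within 0.22. Hira, which deposits histone H3.3, was 0.47 above Sham at TIA 24h and 0.45 above it at TIA 3d (limma adjusted p = 0.807 and 0.594).

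Related genes were also compared within a sample, where the scaling of the lane cancels. Probes differ in efficiency, so a ratio is not a ratio of transcript numbers and just its differences between groups were read. For 8 pairs and 24 comparisons, the two-sided exact permutation test of 3 against 3 samples cannot give a p below 0.1, and adjusted p ran from 0.8 to 1. Groups did not overlap in 3 comparisons. The log2 ratio Brd2/Brd3 was 1.08 ± 0.61 (SD, n = 3) at TIA 24h and 2.71 ± 0.55 at TIA 3d (exact p = 0.1). Sham, at 2.58, 3.06 and 0.50, overlapped both. Mbd2/Mbd3 was 1.78 ± 0.24 for TIA 24h, 0.51 ± 0.63 for Sham and 0.81 ± 0.28 for TIA 3d (n = 3 each), and TIA 24h exceeded both other groups (exact p = 0.1 for each). Mbd3 counts at TIA 24h, 8, 5 and 7, were no higher than the lane medians of the leukocyte markers, 8, 7 and 7, so the Mbd2/Mbd3 ratio there rests on an Mbd3 level not above background. When 5 counts were taken off every gene, Brd2/Brd3 overlapped at a difference of 1.46. Ezh1/Ezh2, Hdac1/Hdac2, Crebbp/Ep300, Dnmt3a/Dnmt3b, Kdm1a/Kdm1b and Kat2a/Kat2b overlapped in every comparison, the mean Crebbp/Ep300 ratio staying between -0.06 and -0.02.

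**Figure D4:**
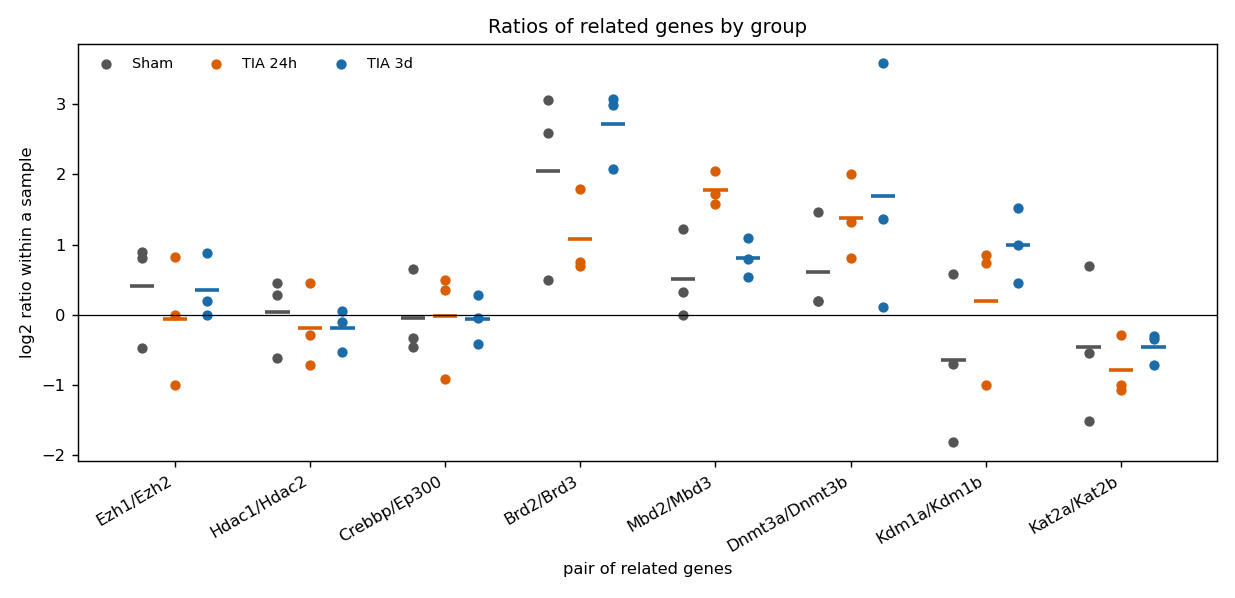
Log2 ratio of 2 related regulators within a sample (vertical axis) for 8 pairs (horizontal axis), with points for samples, colours for groups and bars for group means. The Mbd2/Mbd3 ratios at TIA 24h, 1.58 to 2.04, lie above all others of that pair, and the TIA 24h and TIA 3d ratios of Brd2/Brd3 are apart.

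The ratio of Eed to Ezh2 within a sample, chosen after their values were seen and therefore given with no test, was 0.32, -1.36 and -0.49 under Sham, -1.68, -0.85 and -1.58 after 24 h and 1.66, 0.94 and 1.20 after 3 d. Suz12 to Ezh2 was 0.87, 0.35 and 0.00 for Sham, -0.42, 0.22 and 0.00 for TIA 24h and 1.51, 1.46 and 1.80 for TIA 3d. Eed to Ezh1 was -0.49, -0.89 and -1.38 in the Sham samples, -1.68, 0.15 and -2.42 in the TIA 24h samples and 1.45, 0.06 and 1.20 in the TIA 3d samples. The ratios to Ezh2 were highest in the TIA 3d samples, while Eed to Ezh1 overlapped between TIA 24h and TIA 3d. Eed was above the highest leukocyte marker of its lane in 2 of 9 lanes and Ezh2 in 3, so these ratios rest in part on levels near background.

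Of other chromatin regulators, 30 of 163 listed genes were measured, and 0, 0 and 2 passed in limma in the 3 comparisons. Both fell from TIA 24h to TIA 3d: Setd7, a lysine methyltransferase, by -1.57 (SE 0.42, limma adjusted p = 0.0304) and Kdm4d, a histone H3 demethylase, by -1.43 (SE 0.47, limma adjusted p = 0.0474). Their counts were 15, 10 and 13 against 13, 12 and 10 for Setd7 and 15, 8 and 5 against 8, 8 and 10 for Kdm4d, overlapping as for Ezh2. The median difference of the 30 genes was -0.02. In that same comparison all 15 microglia markers were higher, with a median of 3.12, and 14 passed in limma. All 13 oligodendrocyte markers were lower and 7 passed. All 14 leukocyte markers were lower, with a median of -1.02, and 2 passed. Of all genes, 19.2% passed. The part of these marker shifts in the values of the regulators was not tested. With the log2 total of a lane as covariate, 0 regulators and 0 of all genes passed in this comparison in limma.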

How the data were processed

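The deposited values were log2 of normalized counts for 757 genes in 9 samples. Per the methods, the authors scaled each nCounter lane to housekeeping probes chosen by geNorm in ROSALIND. Negative controls were not used here. Taken out of log2, the values of a lane were whole multiples of 1 step (within 0.01 counts for 100% of them), which gave back whole counts, and lane factors ranged over 3.58-fold. Groups came from sample titles, and 0 value columns were left unused. Each gene was fitted with a mean per group over all 9 samples by lmFit and eBayes of limma 3.58.1 in R 4.3.3 (residual degrees of freedom 6, prior 7.23), with two-sided contrasts, Benjamini-Hochberg adjustment over 757 genes and a threshold of 0.05. Fits were tested on simulated data. Ratios within a sample were compared by exact permutation tests (scipy 1.17.1). Intervals of counts are 95% Poisson. Symbols matched RefSeq for 750 genes directly and 7 through older symbols.

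The genes, lists and tests were chosen with earlier results of these data known. Values in every sample are given for genes past the threshold, for the 3 largest rises and 3 largest falls of each comparison and for the gene with most counts in each role, by a written rule, to which Ep300 and Hdac1 were added after their values were seen. Alternatives were median-centred samples, quantile normalization, lane-total scaling, voom on recovered counts, an intensity trend with robust prior, dropping the genes in the lowest 0.25 quantile by mean, a replicate block, the log2 total as covariate, each sample left out, and, chosen after seeing the data, subtraction of a lane background.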

Additional observations from a re-analysis of the deposited data

Results flagged for a closer look

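The difference of Ezh2 between TIA 3d and TIA 24h, -1.25, is also the test of whether its departure from Sham was the same at both times. Ezh2 was 0.73 above Sham at TIA 24h (limma adjusted p = 0.722) and at -0.51 relative to Sham at TIA 3d (limma adjusted p = 0.467). Neither passed. The difference between these is the contrast already given, not a second test, and it passed in limma (adjusted p = 0.0494). That call was lost on leaving out any TIA sample. It was also lost with median-centred samples, quantile normalization, a replicate block, the log2 total as covariate and lane background subtracted. Recovered Ezh2 counts were not lower at TIA 3d. No group had 4 or more samples, so single samples far from their group were not looked for.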

How the results depend on the processing

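Of the 36 regulators, 0 passed in limma between TIA 24h and Sham and 0 between TIA 3d and Sham under every alternative and on leaving out any sample. Over all 757 genes, TIA 3d against Sham gave 84 without Sham replicate 1, 8 with an intensity trend, 3 with lane background subtracted and at most 1 otherwise, and TIA 24h against Sham at most 1. The F test gave 4 regulators with lane-total scaling (180 of all genes), 12 with voom (290 of all genes) and 0 under the others, where all genes gave 0 to 136. Between TIA 3d and TIA 24h the count of 1 (Ezh2) became 3 with median-centred samples (all higher: Eed, Brd2 and Mbd3; 144 of all 757 genes), 0 with quantile normalization (7 of all genes), 13 with lane-total scaling (344 of all genes) and 18 with voom (385 of all genes), all lower, 2 with an intensity trend (Eed and Ezh2, 177 of all genes), 0 with the log2 total as covariate (0 of all genes) and 3 with lane background subtracted (all higher: Eed, Ncor1 and Mbd3, 103 of all genes). The 13 were Ezh1, Ezh2, Bmi1, Dot1l, Hat1, Kat2b, Hdac1, Hdac2, Sin3a, Dnmt1, Dnmt3a, Dnmt3b and Hells. Voom kept these 13 and added Jarid2, Kat2a, Hdac6, Brd3 and Mbd2. With the 31 regulators left by the filter on low means, the count was 1 (141 of all genes). On leaving out 1 sample it ranged from 0 to 2, with 2 (Eed and Ezh2) without Sham replicate 1 (226 of all genes), 1 without Sham replicate 3 (219 of all genes) and 0 without any of the other 7. Among these 7, 0 of all genes passed when TIA 24h replicates 2 and 3 and TIA 3d replicates 1 and 3 were each left out alone, and 85 to 114 passed for the others. The replicate number as a block gave 0 (140 of all genes, Ezh2 at -1.25, limma adjusted p = 0.0554). Same-numbered samples correlated at -0.237 to 0.271, and not every sample correlated best with its own number. Correlations of this size cannot show whether samples of the same number share a run or batch, which the sample titles do not state. The block changed no other count of regulators. The median difference between TIA 24h and Sham was -0.074 with median-centred samples, 0.014 with quantile normalization and 0.30 with lane-total scaling (0.041 to 0.20 with 1 sample left out). Between TIA 3d and Sham it was 0.026, median-centred, -0.89 with lane-total scaling and 0.44 with lane background subtracted (-0.24 to -0.041 with 1 sample left out). Between TIA 3d and TIA 24h it was 0.17, median-centred, -0.034 with quantile normalization, -1.11 with lane-total scaling (all genes -1.19) and 0.44 with lane background subtracted (-0.40 to -0.12 with 1 sample left out). The comparisons of pair ratios without overlap numbered 3 to 6 with 1 sample left out (6 without Sham replicate 2, 5 without TIA 24h replicate 2 or TIA 3d replicate 1) and 2 with 5 counts subtracted. Signs turned for Tet1 between TIA 24h and Sham with lane background subtracted (0.28), for Ncor1 with the log2 total as covariate (-0.33 against Sham and -0.74 against TIA 24h) and voom (-0.0058 against TIA 24h), for Brd2 between TIA 3d and TIA 24h with quantile normalization (-0.093) and lane-total scaling (-0.025), and for Dot1l there with the log2 total as covariate (0.27). The cause of these changes was not tested. Of the regulators, 8 reached 20 counts in no lane.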
